A study of Homo sapiens with 6 samples.

Results

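Metallothioneins are the small cysteine-rich proteins that bind zinc, copper and cadmium in the cytosol. The data describe 8 of their genes, MT1E, MT1F, MT1G, MT1H, MT1M, MT1X, MT2A and MT3, together with MTF1, the transcription factor that senses free zinc, and SLC30A1, which encodes the zinc exporter of the plasma membrane. These 10 genes were chosen by name, with the difference between the resistant and the parental cells already in view, and every probe set that the platform annotation gives to one of them was kept apart. This gave 15 probe sets for all 10 genes, of 22215 probe sets tested and 11963 genes with a probe set of their own, and 0 of the 15 were annotated to several genes. Because the same comparison entered their choice, the values of these probe sets are a description: no p-values are given for them, and the counts of calls from the fit over the whole array, given further on, support nothing.

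Both groups of cells were compared, with 3 samples and 1 array per sample in each. The parental group was NCI-H1975, a line of human non-small cell lung cancer with mutant EGFR, sensitive to the EGFR kinase inhibitor WZ4002. The other group was WZR6, a single clone (number 6) taken from NCI-H1975 cells that had been grown in rising concentrations of WZ4002 and had become resistant to it, so every difference below is that of 1 clone. Both were grown in RPMI with 5% FBS and harvested in exponential growth, and the labels do not state whether WZ4002 was still present then. Nothing in the labels says that the 3 samples of a group came from separate cultures, so standard errors and adjusted p-values measure the spread between these samples, which may be technical.

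When zinc rises in a cell, MTF1 moves to the nucleus and binds metal response elements. These short DNA motifs lie upstream of SLC30A1 and, in several copies, of metallothionein genes. The metallothioneins then store the metal and SLC30A1 exports it, while importers of the SLC39 family bring zinc in. MT1 and MT2A genes are also induced by cadmium, copper, oxidants and glucocorticoids and are expressed in many tissues, lung among them, whereas MT3 is best known from brain and MT4 from stratified squamous epithelium. The MT1 genes and MT2A lie side by side on chromosome 16 and have closely similar sequences.

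The upstream sequences of 4 of the genes are shown because they carry these elements in unequal number. RefSeq promoters were given for 5 of the 10 genes, MT2A, MT1H, MT1X, MTF1 and SLC30A1, and the 250 bases before each start were searched on both strands for the core of the metal response element, written TGCACNC or TGCGCNC. Each window is read 5′ to 3′ in the direction of its gene, and capitals mark the matches.
MT2A (GRCh38.p14, chr16:56608334-56608583, plus strand): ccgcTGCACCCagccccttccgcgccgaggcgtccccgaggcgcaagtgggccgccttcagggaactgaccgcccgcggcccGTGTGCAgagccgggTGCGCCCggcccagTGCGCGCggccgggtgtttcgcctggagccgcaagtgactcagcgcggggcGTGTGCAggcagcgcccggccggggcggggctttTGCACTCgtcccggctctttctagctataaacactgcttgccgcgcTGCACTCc
MT1H (GRCh38.p14, chr16:56669564-56669813, plus strand): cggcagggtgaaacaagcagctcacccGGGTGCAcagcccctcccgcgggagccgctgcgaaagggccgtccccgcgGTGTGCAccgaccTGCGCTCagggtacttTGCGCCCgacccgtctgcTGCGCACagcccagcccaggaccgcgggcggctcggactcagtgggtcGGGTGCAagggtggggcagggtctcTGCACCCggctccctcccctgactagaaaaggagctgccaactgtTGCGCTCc
MT1X (GRCh38.p14, chr16:56682220-56682469, plus strand): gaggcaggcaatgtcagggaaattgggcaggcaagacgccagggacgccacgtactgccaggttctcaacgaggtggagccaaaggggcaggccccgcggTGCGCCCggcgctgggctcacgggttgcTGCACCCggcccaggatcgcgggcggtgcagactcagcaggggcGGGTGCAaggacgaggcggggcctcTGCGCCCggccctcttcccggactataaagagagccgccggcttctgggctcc
SLC30A1 (GRCh38.p14, chr1:211579162-211579411, minus strand): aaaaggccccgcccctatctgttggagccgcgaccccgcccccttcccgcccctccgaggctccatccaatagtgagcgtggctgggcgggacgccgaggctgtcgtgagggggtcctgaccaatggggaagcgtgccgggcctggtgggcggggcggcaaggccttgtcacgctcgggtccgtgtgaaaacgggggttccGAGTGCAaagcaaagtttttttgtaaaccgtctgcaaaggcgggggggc
The core was found 7 times before MT2A, 8 times before MT1H, 4 times before MT1X and once before SLC30A1, 49 bases before its start, and 0 times before MTF1. Among 35116 RefSeq promoters searched over the same length, 24.8% held at least 1 match, 0.37% at least 4 and 0.0313% at least 7. The antioxidant response element, written TGACNNNGC, matched in 1 place before each of MT2A, MT1X and SLC30A1 and in 0 before MT1H and MTF1, against 10.9% of promoters with at least 1 match. A match is a string of letters and not a measured binding site.

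The metallothionein probe sets fell into sets with a marked decrease and sets with no difference. Of the 12 metallothionein probe sets, 9 are of the type _x_at, whose probes can bind transcripts of related genes, and 3 are of the type _at, which is designed for 1 transcript. All 9 _x_at probe sets, which stand for MT1E, MT1F, MT1G, MT1H, MT1X and MT2A, were lower in WZR6, and in each of them the highest WZR6 array lay below the lowest parental array by at least 1.05 on the log2 scale. The 3 arrays of a group differed by at most 0.22 in these probe sets. The _at probe sets of MT1M, MT1G and MT3 gave 1 decrease and 2 differences near 0. In what follows values are log2 intensities and differences are WZR6 minus parental.

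**Figure D1:**
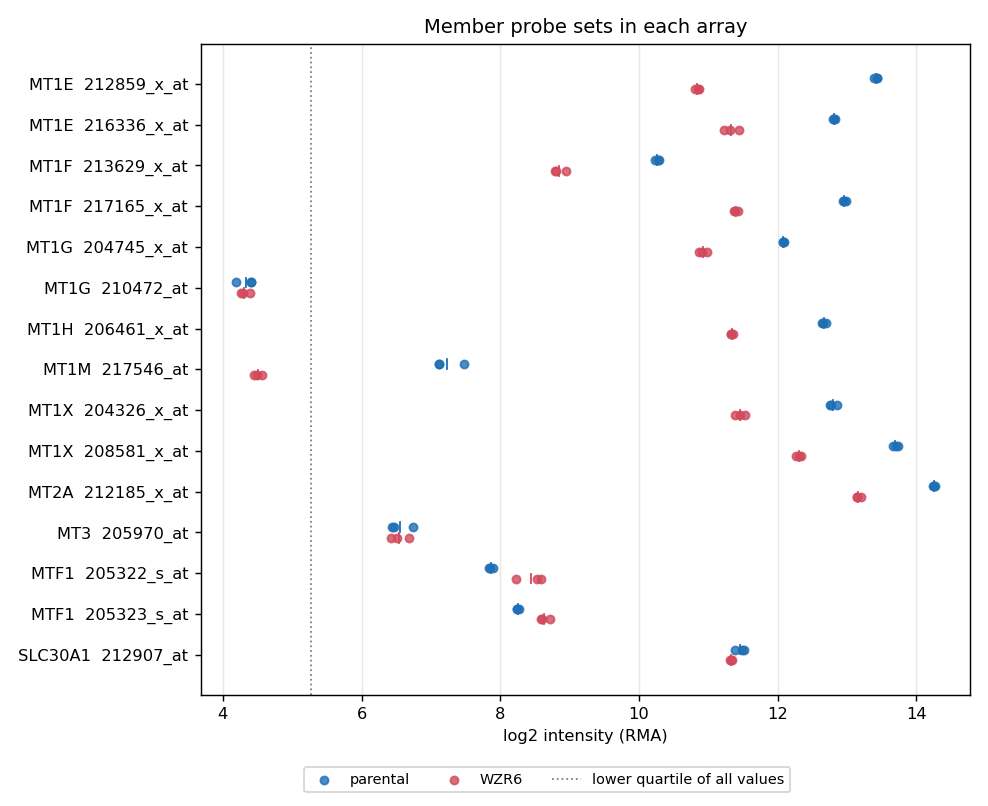
Log2 intensity of the 15 probe sets (rows) in each of 6 arrays, with points for arrays, short bars for group means and a dotted line at the lower quartile of all values, 5.27. The parental arrays lie to the right of the WZR6 arrays in all 9 metallothionein probe sets of type _x_at and in MT1M, whereas the groups overlap for MT3 and for the MT1G probe set 210472_at.

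MT2A, an isoform expressed in most human tissues, was read by a single probe set. It is 212185_x_at, which read 14.26, 14.28 and 14.24 in the parental arrays and 13.15, 13.20 and 13.14 in the WZR6 arrays. The groups were thus far apart compared with the arrays within them, and the difference was -1.10 ± 0.05 (SE, n = 3 per group), or 2.14-fold lower with a 95% interval of 1.99 to 2.31. MT2A had the smallest decrease among the 9 probe sets.

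MT1X was read by a pair of probe sets that gave nearly the same difference. In 208581_x_at the parental arrays read 13.66, 13.74 and 13.70 and the WZR6 arrays 12.27, 12.31 and 12.33. The difference was -1.39 ± 0.05 (SE), or 2.63-fold lower (2.43 to 2.84). In 204326_x_at the values went from 12.77, 12.75 and 12.86 to 11.38, 11.46 and 11.53, a difference of -1.34 ± 0.06. No array of one group reached the other in either probe set.

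MT1H and MT1G, neighbours within the cluster, showed decreases of similar size in their _x_at probe sets. MT1H (206461_x_at) went from 12.65, 12.70 and 12.64 to 11.33, 11.33 and 11.36, which is -1.33 ± 0.05 (SE) or 2.51-fold lower (2.33 to 2.70). MT1G (204745_x_at) went from 12.10, 12.08 and 12.07 to 10.92, 10.98 and 10.87, which is -1.16 ± 0.05 or 2.24-fold lower (2.07 to 2.43). The second MT1G probe set did not share this decrease. It is 210472_at, which read 4.41, 4.41 and 4.18 in parental and 4.39, 4.26 and 4.28 in WZR6 arrays, a difference of -0.02 ± 0.08. Both of its means lay below 5.27, the lower quartile of all values, so MT1G had no probe set of the more specific type with a level above that quartile, and its decrease is uncertain.

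MT1F was lower in both of its probe sets. The brighter one, 217165_x_at, read 12.94, 12.96 and 12.98 in parental and 11.38, 11.37 and 11.43 in WZR6 arrays. Its difference was -1.56 ± 0.05 (SE), or 2.96-fold lower (2.74 to 3.19). The dimmer one, 213629_x_at, went from 10.28, 10.24 and 10.29 to 8.79, 8.81 and 8.96, a difference of -1.42 ± 0.06. The intervals of these differences, -1.67 to -1.45 and -1.56 to -1.27, overlapped.

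MT1E stood out within the family, since its probe sets disagreed in the size of the decrease. Probe set 212859_x_at read 13.43, 13.44 and 13.40 in parental and 10.86, 10.85 and 10.81 in WZR6 arrays, a difference of -2.58 ± 0.05 (SE) or 5.99-fold (5.55 to 6.45), which left 16.7% of the parental intensity. Probe set 216336_x_at went from 12.83, 12.82 and 12.80 to 11.31, 11.45 and 11.23, a difference of -1.48 ± 0.06 or 2.79-fold (2.51 to 3.11). The first decrease exceeded the second by 1.10 on the log2 scale, although both lowered sets are annotated to MT1E alone. The second lay among the other MT1 probe sets: without 212859_x_at the 8 remaining _x_at probe sets ranged from -1.56 to -1.10, or from 2.14-fold to 2.96-fold lower.

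MT1M had the largest difference of all 15 probe sets and was the lowered gene among the 8 metallothioneins that was read by a probe set of type _at. Its probe set, 217546_at, read 7.12, 7.11 and 7.48 in parental arrays and 4.44, 4.49 and 4.56 in WZR6 arrays. The parental arrays spread more than in the brighter probe sets, with an SD of 0.21, and none came near the WZR6 arrays. The difference was -2.74 ± 0.10 (SE), or 6.67-fold lower (5.62 to 7.92), with 15.0% of the parental intensity remaining. The WZR6 mean, 4.50, lay below the lower quartile of all values, so background limits this fold. The parental mean, 7.24, lay below the median of all values, 7.38, and with values below that median set to it the difference shrank to -0.03.

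MT3, the neural isoform, did not differ in this description. Its probe set 205970_at read 6.73, 6.44 and 6.47 in parental and 6.68, 6.52 and 6.43 in WZR6 arrays, so the groups overlapped throughout. The difference was -0.01 ± 0.10 (SE), with a 95% interval of -0.24 to 0.23. Both means, 6.55 and 6.54, lay below the median of all values, and background limits what difference such a dim probe set can show.

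**Figure D2:**
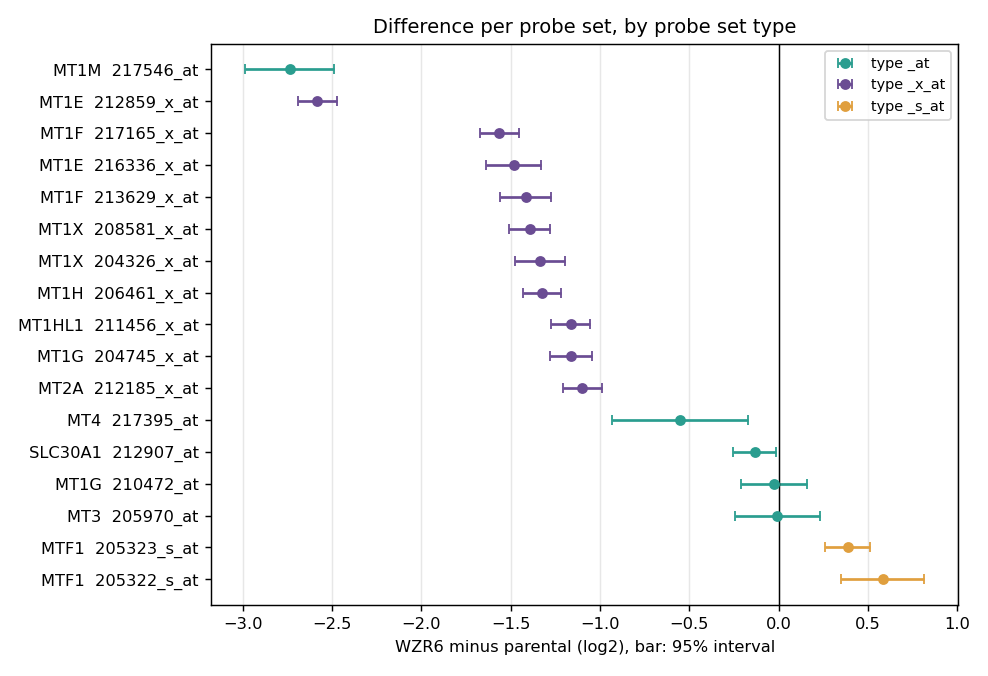
Difference of WZR6 minus parental (log2) with its 95% interval for the 15 probe sets and for MT1HL1 and MT4, coloured by probe set type. Of the 9 _x_at probe sets of the listed genes, 8 lie between -1.56 and -1.10 and 1 lies at -2.58, while the _at probe sets spread from -2.74 for MT1M to -0.01 for MT3.

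MTF1, the zinc-sensing activator of these genes, was higher in WZR6 in both of its probe sets, which are of type _s_at and can read several transcript forms. Probe set 205323_s_at read 8.25, 8.27 and 8.24 in parental and 8.72, 8.59 and 8.61 in WZR6 arrays, a difference of 0.38 ± 0.05 (SE) or 1.31-fold (1.20 to 1.42). Probe set 205322_s_at read 7.90, 7.85 and 7.84 in parental and 8.59, 8.53 and 8.22 in WZR6 arrays, a difference of 0.58 ± 0.10 or 1.50-fold (1.27 to 1.76). The third WZR6 array lay well below the other WZR6 arrays in this probe set, yet above every parental array. The transcript of MTF1 thus differed in the opposite direction from those of the metallothioneins, and its protein and location in the cell were not measured.

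SLC30A1, which exports zinc and is itself induced through MTF1, differed little. Its probe set 212907_at read 11.39, 11.51 and 11.49 in parental and 11.32, 11.32 and 11.35 in WZR6 arrays. All WZR6 arrays lay below all parental arrays, but only just, and the difference was -0.14 ± 0.05 (SE), with a 95% interval of -0.26 to -0.01. The metallothionein decreases were therefore not matched in size by a decrease of this exporter.

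Over all 15 probe sets, the fit across the whole array (limma, adjusted p under 0.05) called 10 lower, 2 higher and 3 not at all, beside 41.1% called over all probe sets, 19.5% lower and 21.6% higher. The groups did not overlap for 11 lower and 2 higher probe sets, where of all probe sets 23.6% had WZR6 wholly below and 27.5% wholly above, 51.1% together. The median difference was -1.33 over the 15 probe sets and 0.03 over all probe sets, and it was 0.02 over the 2428 probe sets of type _x_at. All 9 metallothionein probe sets of that type were called lower with a difference below -1, as were 2.65% of all probe sets. Counted from the lowest difference of all probe sets, MT1M ranked 71, the more lowered MT1E probe set 88 and MT2A 506. Since the genes were chosen on this comparison, these counts support nothing by themselves. Closely related MT1 and MT2A transcripts can each contribute to the signal of an _x_at probe set, so the 9 decreases are not 9 independent measurements, and how much each gene contributed was not tested.

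Of 8 symbols listed for other metallothionein genes and pseudogenes, 2 had a probe set of their own and both fell, beside 22.7% of all genes called lower. MT1HL1, an intronless relative of the MT1 genes on chromosome 1, went from 13.20, 13.20 and 13.20 to 12.07, 12.01 and 12.02 in 211456_x_at (adjusted p = 4.32e-06 in limma). Its difference of -1.17 ± 0.05 (SE) lay in the range of the clustered MT1 genes, and the same limit on specificity holds for it. Because this _x_at probe set can also bind transcripts of those genes, its p-value is not an independent test. MT4 (217395_at) went from 6.25, 5.81 and 6.34 to 5.37, 5.79 and 5.58, or -0.55 ± 0.16 (SE, adjusted p = 0.0295 in limma). The MT4 arrays nearly met, and the call was lost without parental replicate 1 or 3 or WZR6 replicate 1 or 3, at adjusted p-values of 0.0921, 0.0856, 0.0899 and 0.0746, with the replicate number as a block (adjusted p = 0.0715) and with the floor at the median of all values.

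The genes around the cluster on chromosome 16 were not lowered to the same extent. The 10 measured genes before MT2A and the 10 after MT1X, leaving out metallothioneins, differed by -0.79 to 0.51, whereas every _x_at probe set of the cluster differed by -1.10 or lower. Of these 20 genes 3 rose, 5 fell and 12 were not called, beside 46.0% of all genes called, 22.7% lower and 23.3% higher, and their median difference was -0.04 against 0.02 over all genes. Before the cluster CES1, a carboxylesterase, fell by 0.79 ± 0.10 (SE, adjusted p = 5.88e-04 in limma) and IRX5, a homeobox factor, fell by 0.63 ± 0.07 (adjusted p = 4.83e-04). After it PLLP, which encodes plasmolipin, fell by 0.58 ± 0.05 (adjusted p = 1.59e-04) and CETP, the cholesteryl ester transfer protein, rose by 0.51 ± 0.10 (adjusted p = 0.0057), although it lay under the lower quartile in both groups. The calls of CES1 and CETP ended with the floor. The measured genes next to the cluster, OGFOD1 and NUP93, differed by -0.12 ± 0.05 and -0.03 ± 0.05 and were not called.

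**Figure D3:**
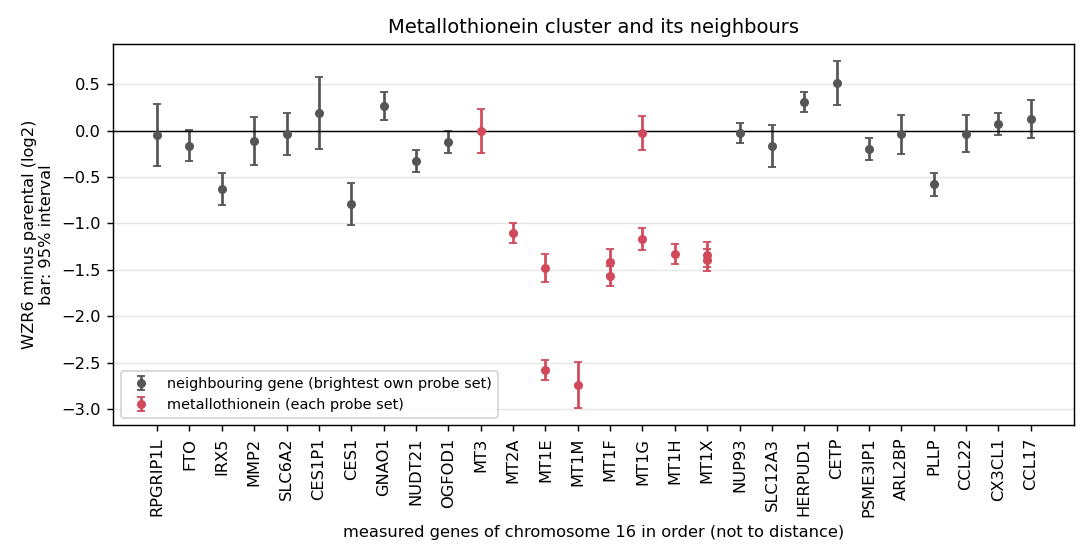
Difference of WZR6 minus parental (log2) with its 95% interval for measured genes of chromosome 16 in their order. Red marks every probe set of the metallothioneins chosen by name, and grey the brightest own probe set of each neighbour. MT4 is not drawn. The neighbours lie between -0.79 and 0.51, and the metallothioneins from MT2A to MT1X lie at or below -1.10 but for 1 MT1G probe set at -0.02.

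Zinc transporters moved in both directions or not at all. Among 6 other measured exporters of the SLC30 family 0 were called in limma, with 1 at an unadjusted p under 0.05. Their differences lay between -0.05 and 0.30. SLC30A4, SLC30A6 and SLC30A10 lay below the lower quartile of all values in both groups, so background limits what difference they can show. SLC30A10 gave both the difference of 0.30 and the unadjusted p under 0.05. The brightest of the 6 exporters, SLC30A9, differed by -0.03 ± 0.06 (SE, adjusted p = 0.778 in limma). SLC30A5 is uncertain, because its brighter probe set differed by -0.05 and its other one was called at 0.35. Of 8 importers of the SLC39 family 3 rose, 2 fell and 3 were not called, with a median of 0.04, beside 46.0% of all genes called, 23.3% higher and 22.7% lower. SLC39A14, an importer of zinc and iron, rose 1.48-fold (1.36 to 1.61, adjusted p = 1.46e-04 in limma), and SLC39A7, which releases zinc from the endoplasmic reticulum and Golgi, rose 1.46-fold (1.35 to 1.57). SLC39A4, the importer of dietary zinc, fell 1.36-fold (1.24 to 1.50) and SLC39A9 fell 1.72-fold (1.46 to 2.03), while its other probe sets differed by -0.44 (called, adjusted p = 0.0183 in limma) and by -0.04 (not called, with both means below the lower quartile).

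Copper handling genes, fixed as a list because metallothioneins also bind copper, split as well. Of 11 measured genes 5 rose, 4 fell and 2 were not called, beside 46.0% of all genes called, 23.3% higher and 22.7% lower, with a median difference of -0.14. The copper-exporting ATPases rose, ATP7B 2.21-fold (1.96 to 2.50, adjusted p = 3.65e-05 in limma) and ATP7A 1.66-fold (1.46 to 1.90), though ATP7B lay below the median of all values in both groups and lost its call under the floor, and another ATP7A probe set was not called at 0.32. STEAP3, a metalloreductase, fell 1.74-fold (1.61 to 1.89) and CCS, the copper chaperone of superoxide dismutase, fell 1.56-fold (1.44 to 1.70).

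**Figure D4:**
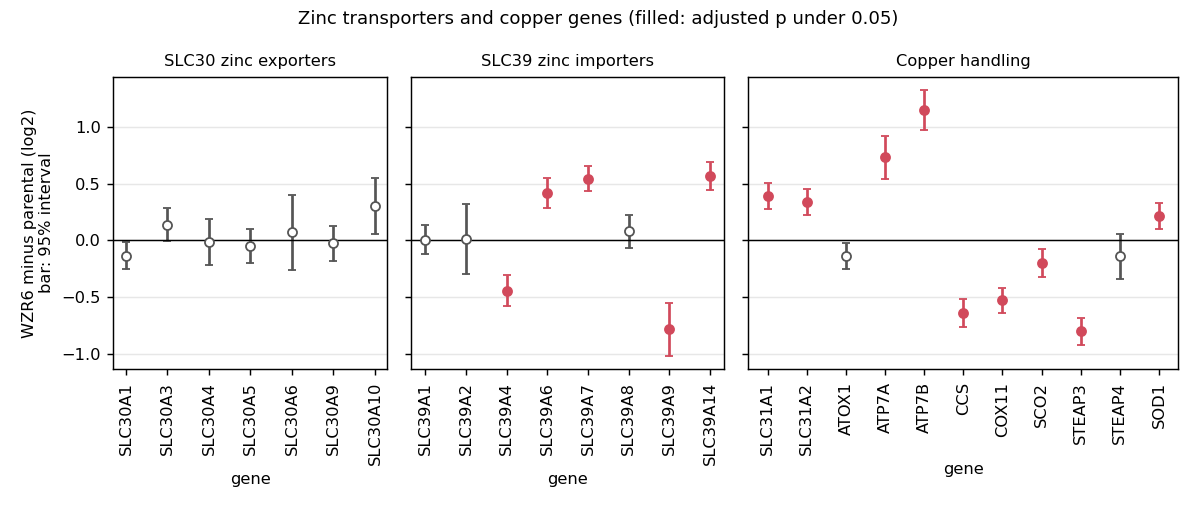
Difference of WZR6 minus parental (log2) with its 95% interval for SLC30A1 and 6 other exporters, 8 SLC39 importers and 11 copper handling genes, with filled points for genes called at an adjusted p under 0.05. The exporters are all open, and the importers and copper genes hold calls on both sides of 0, from -0.80 for STEAP3 to 1.15 for ATP7B.

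Genes that answer metals and oxidants by other routes held 1 large decrease. Of 10 measured genes 2 rose, 1 fell and 7 were not called, beside 23.3% of all genes called higher and 22.7% lower, with a median of -0.04. The balance moved either way with the processing. Under cyclic loess 1 rose and 3 fell, and with the intensity trend 2 rose and 3 fell. In these fits GCLC and GCLM, the subunits of the enzyme that starts glutathione synthesis, joined HMOX1. Under median centring, quantile normalization or a replicate block, and without dim probe sets, 3 rose and 1 fell. The gene that fell in the reported fit was HMOX1, the heme-degrading enzyme, by 2.51 ± 0.06 on the log2 scale (SE, adjusted p = 5.43e-07 in limma), close in size to the more lowered MT1E probe set, 212859_x_at. SLC7A11, the cystine importer, rose 1.32-fold (1.20 to 1.46). Of its other probe sets, 217678_at was called at 0.39 and the dimmer 207528_s_at was not called at -0.03. The chaperone DNAJB1 rose 1.12-fold (1.04 to 1.20, adjusted p = 0.0232) in 200666_s_at, and its other probe set was called at 0.25. The call of DNAJB1 in 200666_s_at was lost without any 1 of the 6 arrays, at adjusted p-values from 0.0502 to 0.0727, and under cyclic loess (0.0530).

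By the distance over 6 arrays of values centred on the parental mean, the genes most like MT2A were DNAJC22, EGR1, MGLL, MRPL11 and ASL, with root mean square distances of 0.035 to 0.041. Their differences lay between -1.14 and -1.05. The genes most like MT1M were PCSK5, SMARCA1, ZKSCAN7, TGFA and SLC4A4, at distances of 0.08 to 0.10 and differences between -2.81 and -2.65. The WZR6 means of MT1M, PCSK5, ZKSCAN7 and SLC4A4 lay below the lower quartile of all values, so these distances compare differences that reach into the background. The distance takes in the size of the difference as well as the spread of the arrays.

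Across the arrays, log2 intensities correlated over probe sets with r of 0.9978 to 0.9983 within groups and 0.9815 to 0.9826 between groups. Of 7 markers of lung adenocarcinoma epithelium, 0 lay below the lower quartile in either group, although 6 of the 7 fell. Of all genes 22.7% were called lower and 23.3% higher. In WZR6 the means of EPCAM (6.17, a difference of -6.26) and NKX2-1 (6.44, a difference of -2.14) lay below the median of all values, 7.38. Markers of other cell types were mostly dim: both group means lay below the median of all values for 3 of 4 measured leukocyte, 4 of 6 fibroblast and 4 of 4 endothelial markers, and for 0 of 7 epithelial ones. Fewer lay below the lower quartile, in each group 1 of 4 leukocyte, 2 of 6 fibroblast and 1 of 4 endothelial markers. The summed intensity of the leukocyte markers was 493 to 561 in parental and 272 to 294 in WZR6 arrays, that of the fibroblast markers 2115 to 2297 and 1187 to 1207, and that of the endothelial markers 242 to 270 and 264 to 285. PTPRC, the pan-leukocyte marker, was below the lower quartile in both groups, but some other markers were brighter. CD14 went from 8.45 in parental to 7.49 in WZR6, COL1A1 from 9.60 to 6.60 and COL1A2 from 10.29 to 9.73. These and ITGB2 (-1.37) were called lower, and PDGFRB (0.66) and CDH5 (0.89) were called higher. The remaining leukocyte, fibroblast and endothelial markers were not called. Both groups were cultures, of the NCI-H1975 line and of a clone taken from it, and not tissues of mixed cell types. The part of any other cell type in the metallothionein differences was not tested. In bulk RNA fewer cells of a kind and less RNA per cell cannot be told apart.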

How the data were processed

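Gene expression was measured on oligonucleotide arrays in 6 samples, grouped by their titles. The deposited intensity of each probe set is on a linear scale and was made by the authors; per the submitters' processing notes they used RMA, which corrects background, quantile normalizes and summarizes probes. The labels state neither its version nor its options. Log2 was taken of the intensities without pseudocount or further normalization. The 62 control probe sets among 22277 were dropped. There are no detection calls.

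Members and lists were chosen with earlier results of these data known, so the p-values of list genes are also a description of these arrays. Differences come from the two-sided moderated test of limma 3.58.1 (R 4.3.3) over 22215 probe sets, with Benjamini-Hochberg adjustment over all of them and calls at an adjusted p under 0.05. Folds are ratios of geometric means, and intervals have 95% confidence. Other genes were read from the brightest probe set of their own, by the mean of 6 arrays. In each list up to 4 called genes with the largest differences were named, or the brightest gene where none was called. SLC30A4, SLC30A5, SLC30A6, SLC30A10, GCLC, GCLM, OGFOD1, NUP93 and NR3C1 were named after their values were seen. So were the markers EPCAM, NKX2-1, CD14, ITGB2, COL1A1, COL1A2, PDGFRB and CDH5. Of the 19064 probe sets with 1 gene, 19052 matched the RefSeq table of GRCh38.p14 by Entrez identifier. The fit was tested on simulated data for 3 against 3 arrays over 22215 probe sets, where 50 of 100 probe sets changed by 0.5 log2 and 89 of 100 changed by 1 log2 were called. Of the unchanged probe sets 4 were called. The changed share was far below the 41.1% called in the data, and the adjustment depends on that share, so these counts do not give the power in the data. Python 3.11.15 and matplotlib 3.10.9 drew the figures. Precision is limited by the number of arrays.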

Additional observations from a re-analysis of the deposited data

How the results depend on the processing

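The alternatives were cyclic loess, median centring, quantile normalization, leaving out probe sets below the 25th percentile, a floor set at the overall median, robust variance with an intensity trend, a block for replicate number, leaving out _x_at and _s_at probe sets, averaging the probe sets of a gene (other genes only) and leaving out each array. Of 198 fits of single member probe sets, 193 kept their direction and side of the threshold or were uncalled in both; MT1M was not called with the floor, and SLC30A1 was called under cyclic loess (-0.16), without dim probe sets, with the intensity trend (both -0.14) and without parental replicate 1 (-0.17). The metallothionein _x_at and MTF1 probe sets kept their calls in every fit that held them. Without _x_at and _s_at probe sets 4 members remained, of which 1 was lower (MT1M) and 0 higher. The same step, which tests fewer genes, gave 1 call of 1 other metallothionein, 3 of 5 SLC39 importers, 3 of 4 glucocorticoid-induced genes and 2 of 13 neighbours. Other metallothioneins gave 1 call with the floor. SLC30 exporters gave 1 call under median centring, 1 with the intensity trend and 2 as the mean of probe sets, and metal and oxidant stress genes 5 with the intensity trend; the cause was not tested. Leaving out 1 array gave 10 to 11 members called lower and 2 called higher, 1 to 2 other metallothioneins, 0 to 1 SLC30 exporters (1 without WZR6 replicate 3), 5 SLC39 importers, 8 to 10 copper genes, 2 to 3 stress genes, 4 to 5 glucocorticoid-induced genes and 7 to 9 neighbours.

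The reported fit did not pair the samples by replicate number. Deviations of same-numbered arrays correlated over probe sets at -0.01, 0.12 and 0.23. WZR6 replicates 2 and 3 each correlated best with the parental array of the same number, but WZR6 replicate 1 did so with parental replicate 2 (0.13). These values do not settle whether the numbers pair the samples. With the replicate block 1 other metallothionein and 1 SLC30 exporter were called, 9029 probe sets were called in all against 9131, and no member's call changed.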

Other observations

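The glucocorticoid list held genes induced by glucocorticoids, which also induce MT2A, and NR3C1, the gene of their receptor. Of 8 measured genes 4 rose, 2 fell and 2 were not called in limma. The 2 that fell were DUSP1 and the receptor gene NR3C1. Of all genes 46.0% were called, 23.3% higher and 22.7% lower, and the median difference was 0.12 in the list against 0.02 over all genes. KLF9, a transcription factor, rose by 0.69 ± 0.09 (SE, adjusted p = 8.69e-04 in limma). Of its other probe sets, 203543_s_at was also called at 0.69, and the dimmer 203541_s_at was not called at 0.07. FKBP5, a co-chaperone of the glucocorticoid receptor, rose by 0.37 ± 0.09 and CEBPD, a transcription factor, by 0.26 ± 0.05. DUSP1, a phosphatase of MAP kinases, fell by 0.23 ± 0.05, a call that was lost as the mean of its probe sets (adjusted p = 0.125). NR3C1, which encodes the glucocorticoid receptor itself and was named after its values were seen, fell by 0.15 ± 0.05 (adjusted p = 0.0357 in limma), and its 3 other probe sets differed by -0.44, -0.12 and -0.07, of which the first was called. The NR3C1 call was lost under median centring (adjusted p = 0.105), with the replicate block (0.0606) and without any 1 of the 6 arrays (0.0569 to 0.117). FKBP5 lay below the median of all values in both groups, and its call ended with the floor.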
